A study of Mus musculus with 41 samples.

Results

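Cytosolic ribosomal protein genes were followed through the RNA-seq, metabolic-labelling and chromatin data of a study of Rhox10, an X-linked homeobox gene of the mouse germ line. The members were all protein-coding genes whose symbols name a cytosolic ribosomal protein (Rpl, Rps and Rplp symbols; the kinases with Rps6k symbols and pseudogenes were left out). The rule gave 86 genes of 55536 genes in the count tables, 22028 of which are protein-coding. Of these, 52 belong to the large subunit and its stalk and 34 carry small-subunit symbols. The symbol rule also takes in Rps19bp1, which binds Rps19 and is not itself a ribosomal protein. Of the members 4, Rpl10, Rpl36a, Rpl39 and Rps4x, lie on the X chromosome.

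Ribosomal proteins assemble with ribosomal RNA in the nucleolus, and the small and large subunits join on messenger RNA in the cytoplasm. Their genes are among the most strongly transcribed in growing cells, and their mRNAs usually begin with a run of pyrimidines, the TOP motif, through which mTOR signalling and La-related proteins control their translation. In the male germ line the X chromosome is silenced during meiosis, and autosomal copies of X-linked ribosomal protein genes, such as Rpl10l and Rpl39l, are known for their use in spermatogenic cells. Most mammalian ribosomal protein genes also have many processed pseudogenes, so that short reads from them can match several places in the genome.

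All samples were from C57BL/6 mice. The RNA-seq libraries were made from Oct4-eGFP+ germ cells sorted by flow cytometry from testes, with the testes of 3 animals pooled in each library. There were 4 wild-type libraries and 4 labelled Rhox10-null, and the age of these animals was not used here. The iSLAM-seq libraries came from cultured germline stem (GS) cells derived from newborn testes. In all of these cells, controls included, endogenous Rhox10 was knocked down with a short hairpin RNA. They then carried either Rhox10 fused to ERT2 and mCherry (called the fusion below), where ERT2 is an oestrogen receptor domain that 4-hydroxytamoxifen releases into the nucleus, or ERT2-mCherry alone (the empty vector). Cells were taken at 0, 0.5, 1, 2, 4 and 8 h of 4-hydroxytamoxifen, with 2 replicates for each vector and time, and the libraries were 3′ end libraries. CUT&Tag, which cuts and tags chromatin where an antibody is bound, was done in knockdown GS cells with HA-tagged Rhox10, and only the merged list of RHOX10 peaks was used here. The labels do not say whether replicates were separate cultures, so p-values for the GS cells measure the spread between these libraries, which may be technical.

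Library facts that bear on these genes are as follows. RNA-seq totals ran from 6602089 to 8278887 counts, and 8 genes that each took over 1% of the counts left 1379870 to 2128523 counts for all others. The members held 26545 to 33449 counts per RNA-seq library. The iSLAM-seq totals ran from 9419615 to 12645845, with 260022 to 365448 counts on members. Rhox10 itself had 3 to 10 counts in wild-type and 4 to 11 in the libraries labelled null, so its count does not check the genotype labels. In GS cells it had 2 to 27 counts with the empty vector and 353 to 540 with the fusion. In the RNA-seq libraries, 7 of 8 germ cell markers were called lower in the libraries labelled null (summed level 190.7 to 194.9 in wild-type and 91.0 to 98.8 in the null libraries, in CPM, the unit of counts scaled to library size). Markers of other testis cells moved the opposite way: 7 of 7 peritubular and stromal markers were called higher (441 to 466 against 701 to 741 CPM), 4 of 5 Leydig cell markers tested (34.2 to 36.0 against 46.3 to 56.1 CPM), and 6 of 6 erythroid markers tested (1.36 to 4.07 against 78.3 to 86.8 CPM, with Slc4a1 at 0 in every wild-type library). Of 7 Sertoli cell markers tested, 2 were called higher and 1 lower, and Amh, a Sertoli cell hormone, stood at 139 CPM in wild-type, above the germ cell helicase Ddx4 at 38.8 CPM. The germ cell marker not called was Pou5f1, the gene of Oct4, at 4.59 CPM in wild-type and 4.35 CPM in null (log2 fold change -0.07, edgeR adjusted p = 0.783). In these pooled, sorted cells, fewer cells of a type and less RNA per cell cannot be told apart, and the part of these markers in the results below was not tested.

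Sequences around the transcription start are shown for 4 members with long pyrimidine runs and for 2 pairs of an X-linked gene and its autosomal copy, on which the results below turn. RefSeq start sites (GRCm38.p6) matched 66 of the 86 members. The window of each of the first 4 sequences runs from 15 bases before the start to 15 after, 5′ to 3′ on the gene's strand, and capitals mark the longest run of C or T that touches the 5 bases around the start. Rpl7a and Rpl35 encode large-subunit proteins, Rpl15 a core large-subunit protein, and Rplp2 a protein of the stalk.
Rpl7a, chr2:26910792-26910821, plus strand: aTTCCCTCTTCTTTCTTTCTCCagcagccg
Rpl35, chr2:39005117-39005146, minus strand: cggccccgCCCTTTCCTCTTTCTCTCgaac
Rpl15, chr14:18270972-18271001, minus strand: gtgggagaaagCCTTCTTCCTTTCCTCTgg
Rplp2, chr7:141447636-141447665, plus strand: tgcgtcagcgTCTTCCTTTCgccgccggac
These runs were 21, 18, 17 and 10 bases long.

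A run of at least 8 pyrimidines touched the start in 21 of the 66 members (31.8%), against 9.58% of 16515 protein-coding genes with a RefSeq promoter. Letters of 4 motifs were searched on both strands from 250 bases before to 50 after the start. CCGGAAG, the core bound by ETS factors, was found in 24 members (36.4%, against 12.4% of all promoters). AAGATGG, the core of the YY1 motif, was found in 9 members (13.6% against 6.40%), TATAAA in 6 (9.09% against 12.9%) and TAATTA, the core bound by many homeodomain proteins, in 1 (1.52% against 4.61%). These are matches of letters and not sites of binding. The reverse complement of CCGGAAG begins with pyrimidines, so a match on the other strand can overlap a run at the start.

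The next 4 sequences cover 120 bases before to 10 after the start of Rpl10 and Rpl39, both on X, and of their autosomal copies. Capitals at the start mark the pyrimidine run as above, and capitals further upstream mark TATAAA in Rpl39 and CCGGAAG in Rpl39l.
Rpl10, chrX:74270696-74270825, plus strand: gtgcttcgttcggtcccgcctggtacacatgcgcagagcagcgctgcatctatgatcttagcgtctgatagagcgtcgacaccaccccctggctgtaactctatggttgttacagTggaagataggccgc
Rpl10l, chr12:66284392-66284521, minus strand: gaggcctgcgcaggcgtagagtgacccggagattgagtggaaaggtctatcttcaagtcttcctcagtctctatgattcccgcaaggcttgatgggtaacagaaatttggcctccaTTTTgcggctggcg
Rpl39, chrX:37085213-37085342, minus strand: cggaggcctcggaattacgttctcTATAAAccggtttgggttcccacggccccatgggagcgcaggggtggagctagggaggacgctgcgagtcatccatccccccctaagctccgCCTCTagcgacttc
Rpl39l, chr16:10170108-10170237, plus strand: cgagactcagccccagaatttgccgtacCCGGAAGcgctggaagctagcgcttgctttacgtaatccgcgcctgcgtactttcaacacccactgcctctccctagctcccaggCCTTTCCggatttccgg
None of the 4 has a run of 8 or more pyrimidines at this start.

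Levels of the members in sorted wild-type germ cells were compared per kilobase of exon, as CPM per kilobase. The length counts all annotated exons of a gene, such as 499 bases for Rplp1 and 6270 for Rps15a, so the order depends on the annotation. Rplp1, a stalk protein, was highest at 128 CPM per kb, followed by Rps3a1 (102), Rpl23a (87.9) and the stalk base protein Rplp0 (84.3), and the median of tested members was 27.2. The lowest tested members were Rps10 (0.783), Rpl24 (1.71), Rps19bp1 (2.25) and Rpl13a (2.497). Rps10, Rpl24 and Rpl13a encode proteins that every ribosome holds, so a low count here is not the level of the protein. On their own strand Rps10 and Rpl24 overlap 1 gene each and Rpl13a 6, while Rps19bp1 overlaps 0. Among the highest members, Rpl23a overlaps 3 genes and Rps3a1 2, and Rplp0 and Rplp1 overlap 0. The part of such overlaps in these levels was not tested. Without length, 74 members lay between 20 and 150 CPM in wild-type and 12 lay under 20. On that scale Rplp1 had a wild-type mean of 64.0 CPM, below Rpl4 (143) and Rplp0 (140).

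Sequence shared with other places in the genome was measured beside these levels. For each member, the share of 50-base windows of its transcript that occur elsewhere in GRCm38 was computed, and 60 of the 86 members have named pseudogenes in the tables. The shared part was 0% in Rpl39l, Rpl3l and Rps19bp1, 26.3% in Rpl10l, 44.1% in Rpl39, 84.3% in Rps4x and 85.4% in Rpl10. In the 3′ end libraries only the last part of the transcript is read. Of the 86 members, 28 had over 90% of the windows of their last 250 bases elsewhere, and their median iSLAM-seq level over all libraries was 9.11 CPM (0.255 to 174.6). The 26 members with 10 to 90% shared had a median of 224 CPM, and the 32 with under 10% a median of 119 CPM. Over the 86 members the rank correlation between the shared part of the end and the iSLAM-seq level was -0.44. For the wild-type RNA-seq level of the same 86 members, with the whole transcript, it was 0.14. Both are descriptions over genes that share the same libraries. The range in GS cells was wide, from Rps6 at 0.255 CPM to Rplp1 at 3318, with 22 members under 10 CPM and 8 over 1000. The rank correlation of member levels between RNA-seq and iSLAM-seq was 0.13. How reads that match several places were counted is not given in the sources used here.

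**Figure D1:**
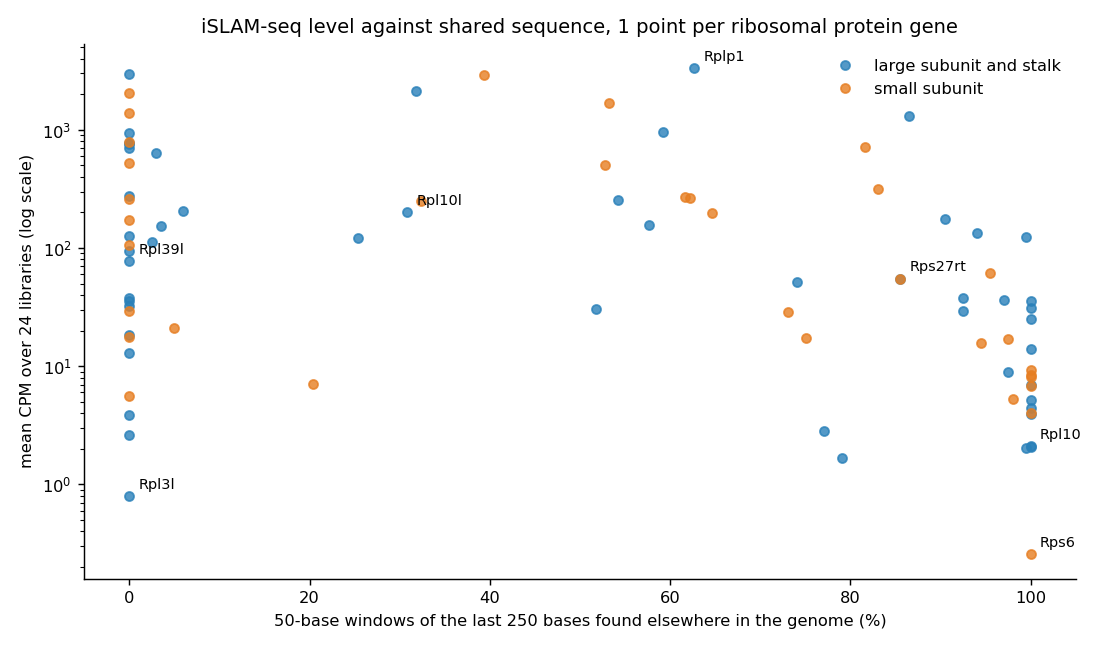
Each point is 1 of the 86 members. The horizontal axis is the percent of 50-base windows of the last 250 transcript bases found elsewhere in the genome, and the vertical axis, on a log scale, is the mean iSLAM-seq level in CPM over 24 libraries; the 28 members above 90% have a median of 9.11 CPM.

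The first comparison asked which genes differ between wild-type and Rhox10-null germ cells. Most ribosomal protein genes were a little lower in the libraries labelled null, relative to the other genes of these libraries. Of 84 members tested (Rpl3l and Rpl36al had too few counts), 69 were called lower and 0 higher by edgeR's quasi-likelihood test with trimmed-mean (TMM) scaling and an adjusted p under 0.05. The direction turned when libraries were scaled by their totals (4 lower, 18 higher) or to germ cell genes (2 lower, 81 higher). Both of these scalings moved the median of all genes up as well, and the shares of all genes called under them are not reported here. With TMM scaling the median log2 fold change was -0.28, that of all tested genes 0.00, and 65 of the 69 called lay between -0.5 and -0.15. The background was 18.9% of all tested genes called lower and 18.6% called higher, and 26.7% called lower among genes with a mean of at least 10 CPM. In 64 members every null library lay below every wild-type library, against 16.4% of all tested genes. Large-subunit genes (42 of 50 lower, median -0.27) and small-subunit genes (27 of 34 lower, median -0.31) had most of their genes among the calls. Without the 8 genes over 1%, members took 1.84 to 1.93% of the remaining counts in wild-type and 1.57 to 1.61% in the null libraries. As a share of all counts the order was the opposite, 0.378 to 0.403% in wild-type and 0.408 to 0.421% in null. The 8 genes left 1379870 to 1724651 counts of totals of 6602089 to 8278887 in wild-type. In null they left 1717781 to 2128523 counts of totals of 6635298 to 8203520. These genes thus took a larger part of the counts in wild-type, so the 2 denominators differ by genotype.

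The sign of the common shift depended on the scaling. Scaling by library totals moved the median of all genes to 0.35 and that of the members to 0.06, and scaling to germ cell genes moved them to 0.88 and 0.60. A scaling shifts all genes alike, so the distance of the members from the median of all genes stays about the same by construction. Under both of the other scalings Rpl10l and Rpl39l were still called lower. With an offset for exon length 46 members were called, 43 lower and 3 higher (Rpl23a, Rps27 and Rpl36), with a member median of -0.15. The share of all genes called with this offset is not reported here. Germ cell genes beside them had a median of -0.85, with 20 of 22 called lower, a median farther from 0 than that of the members on the same scale. The members with under 50% shared sequence gave 34 lower of 39 (median -0.28) and those with more gave 35 of 45 (median -0.29).

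**Figure D2:**
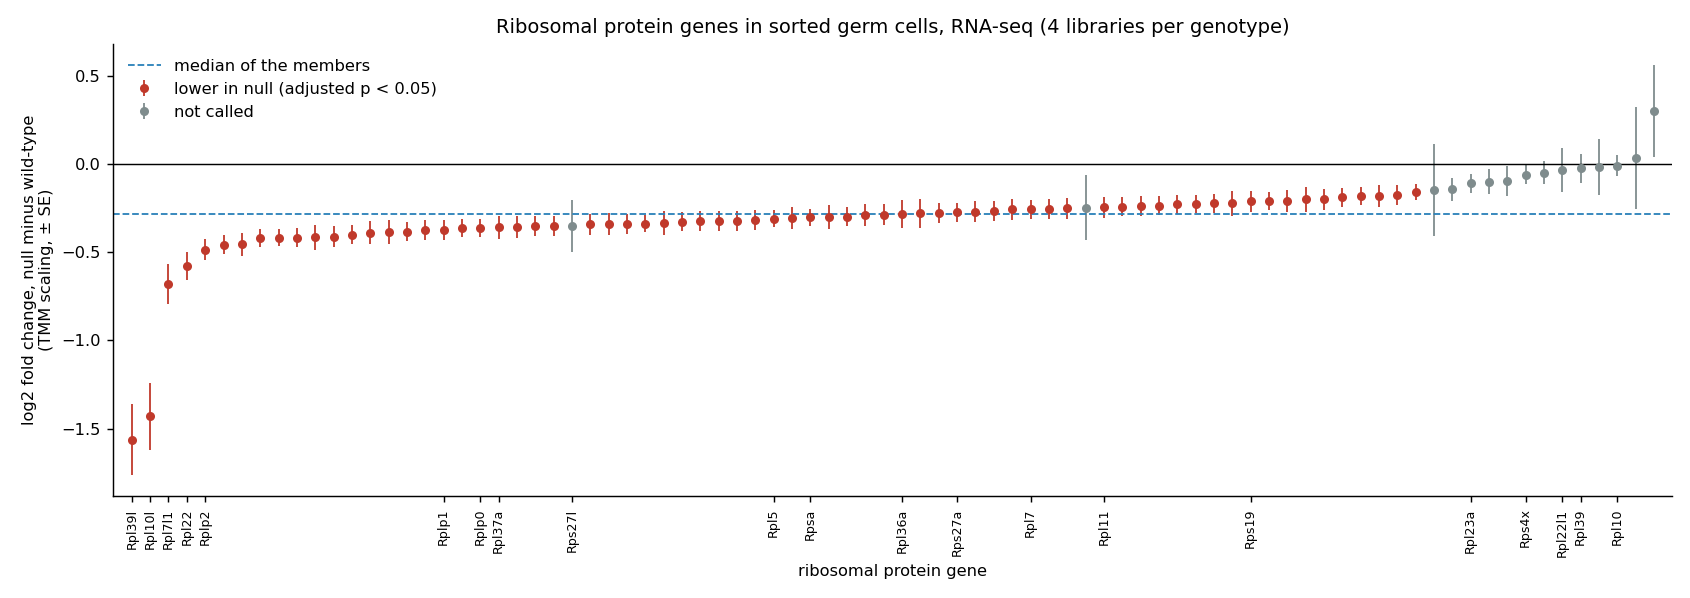
Log2 fold change with its SE (libraries labelled null minus wild-type, TMM scaling) of each tested member in order, with some of the members described in the text labelled, and the median of the members as a dashed line. 69 of 84 are called lower and 0 higher on this scale, while 18 are called higher under scaling by library totals and 81 under scaling to germ cell genes. Both of these scalings move the median of all genes up as well.

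The 2 members that stood farthest from the rest were autosomal copies of X-linked genes. Rpl39l, on chromosome 16, encodes a paralogue of Rpl39, a small protein of the exit tunnel. Its levels were 7.07, 6.90, 6.27 and 5.16 CPM in wild-type and 1.64, 3.05, 1.56 and 2.42 CPM in the libraries labelled null. Every null library was below every wild-type library, and the log2 fold change was -1.56 (SE 0.202, edgeR adjusted p = 3.56e-08). Rpl10l, on chromosome 12, encodes a paralogue of Rpl10, which sits near the peptidyl transferase centre. It stood at 5.42, 7.82, 6.95 and 7.46 CPM in wild-type and at 2.29, 3.31, 3.00 and 1.61 CPM in null. These groups did not overlap either, and the log2 fold change was -1.43 (SE 0.189, edgeR adjusted p = 6.20e-08). The SD of fold changes over the other tested members was 0.142 on the log2 scale.

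The X-linked parents did not pass the test. Rpl10 was at 46.0, 46.5, 48.3 and 52.6 CPM in wild-type and at 47.1, 50.5, 46.3 and 49.5 CPM in null, a log2 fold change of -0.01 (SE 0.0579, edgeR adjusted p = 0.944). Rpl39 was at 27.8, 21.6, 25.1 and 28.6 CPM in wild-type and at 25.1, 22.1, 25.8 and 29.1 CPM in null (log2 fold change -0.02, edgeR adjusted p = 0.855). Their libraries interleaved. Rps4x, a small-subunit protein with a copy on the human Y chromosome, was 64.5 ± 2.87 against 61.9 ± 2.72 CPM (SD, n = 4 each; edgeR adjusted p = 0.401). Rpl36a, the remaining X-linked member, was called lower, at 23.3 ± 2.35 against 19.2 ± 1.26 CPM (log2 fold change -0.28, edgeR adjusted p = 0.00606), with overlapping groups. All 451 tested X-linked genes had a median of -0.01.

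A ratio of copy to parent within a library does not depend on scaling between libraries. These ratios were examined with the values known, for 6 pairs, by exact permutation tests of 4 against 4 libraries (70 arrangements, smallest possible two-sided p = 0.0286). The log2 ratio of Rpl10l to Rpl10 was -2.80 ± 0.209 in wild-type and -4.26 ± 0.460 in null, a difference of -1.45 (exact p = 0.0286, Benjamini-Hochberg 0.0571). That of Rpl39l to Rpl39 was -2.01 ± 0.338 and -3.57 ± 0.526, a difference of -1.56 (exact p = 0.0286, Benjamini-Hochberg 0.0571). In both pairs all 4 null ratios lay below all 4 wild-type ratios. Rpl22l1 to Rpl22 moved the opposite way by 0.55 (exact p = 0.0286, Benjamini-Hochberg 0.0571), and the other 3 differences, for Rpl7l1, Rps27l and Rps27rt over their parents, were -0.42, -0.31 and -0.18 (exact p from 0.0571 to 0.2).

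**Figure D3:**
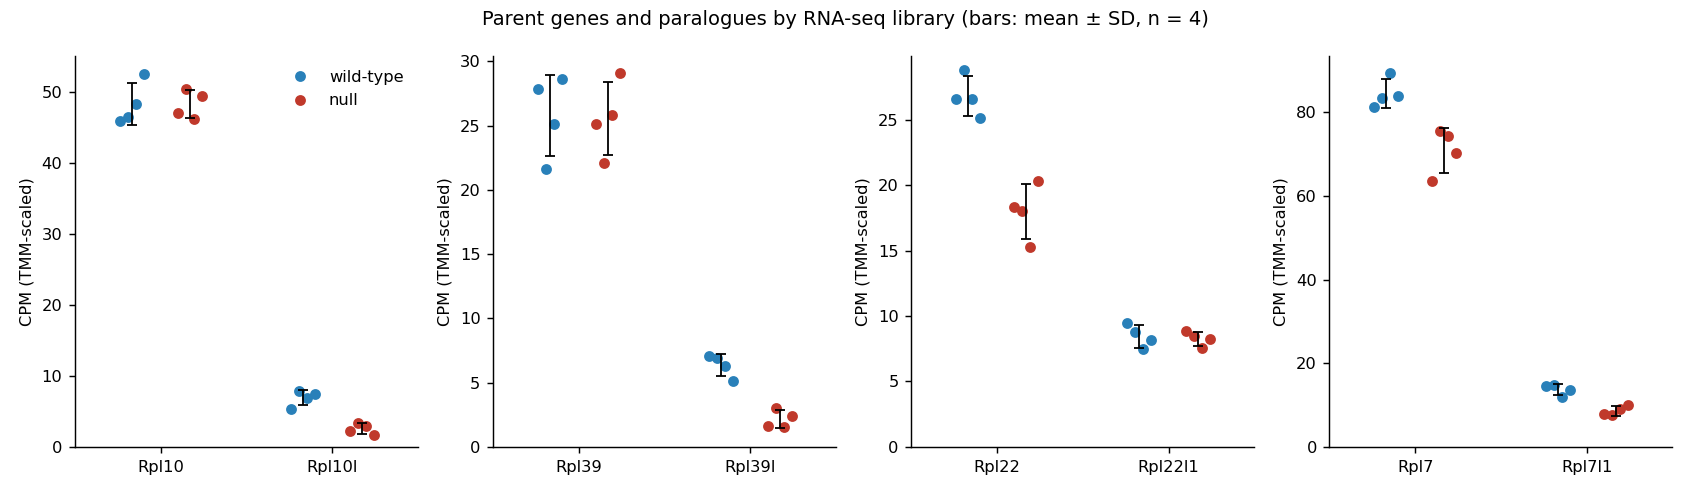
Levels in CPM (linear axes from 0, TMM scaling) of 4 pairs of a parent gene and its copy, with a point for each of the 4 wild-type and 4 null libraries and bars for the mean ± SD. Rpl10l and Rpl39l have null libraries below all wild-type libraries, while the libraries of Rpl10 and Rpl39 interleave.

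In a further 2 pairs the parent or the copy was among the largest falls. Rpl7l1, a divergent relative of Rpl7, was at 14.6, 14.9, 11.9 and 13.6 CPM in wild-type and at 7.75, 7.55, 9.13 and 10.1 CPM in null (log2 fold change -0.68, SE 0.114, edgeR adjusted p = 7.15e-06). Rpl7 itself was 84.5 ± 3.53 against 70.9 ± 5.40 CPM, a log2 fold change of -0.25 close to the member median. Rpl22, a large-subunit protein whose loss is known to raise its copy Rpl22l1 in mice, was at 26.6, 28.8, 26.6 and 25.1 CPM in wild-type and at 18.4, 18.01, 15.3 and 20.3 CPM in null (log2 fold change -0.58, SE 0.0815, edgeR adjusted p = 2.53e-07). For neither gene did the groups overlap. Rpl22l1 was 8.455 ± 0.860 against 8.28 ± 0.538 CPM and did not pass the test. Among the small-subunit copies, Rps27 (log2 fold change -0.05), Rps27l (-0.35, edgeR adjusted p = 0.0570) and Rps27rt (-0.25, edgeR adjusted p = 0.306) did not pass either.

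The stalk, which recruits elongation factors to the large subunit, had all 3 members lower. Rplp2 was at 44.5, 45.4, 45.4 and 44.8 CPM in wild-type and at 30.5, 33.2, 33.0 and 32.2 CPM in null, a log2 fold change of -0.48 (SE 0.0596, edgeR adjusted p = 1.19e-08). Rplp1 was 64.0 ± 4.45 against 49.4 ± 2.89 CPM (-0.37) and Rplp0 140 ± 12.1 against 109 ± 3.98 CPM (-0.36). The proteins that carry 5S rRNA into the large subunit and, when free, bind Mdm2 were also both lower: Rpl5 at 106 ± 4.85 against 85.5 ± 2.14 CPM (log2 fold change -0.31, edgeR adjusted p = 2.33e-06) and Rpl11 at 50.7 ± 2.15 against 42.9 ± 3.07 CPM (-0.24, edgeR adjusted p = 0.00114). Rpsa, which doubles as a laminin receptor, was at 136, 148, 148 and 147 CPM in wild-type and at 113, 117, 119 and 120 CPM in null (log2 fold change -0.30, edgeR adjusted p = 1.62e-06). Rps19, the gene most often mutated in Diamond-Blackfan anaemia, was 51.8 ± 5.36 against 44.7 ± 1.02 CPM (log2 fold change -0.21, edgeR adjusted p = 0.00576). Of 9 members known in that anaemia, 8 were called lower. Of 3 tested genes made as such fusions (median -0.22), 2 were called lower. These were Rps27a, made as a fusion with ubiquitin (-0.27), and Fau, made as a fusion with a ubiquitin-like protein and not a member by symbol (-0.16).

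The 15 members that did not pass were Rpl10, Rpl13a, Rpl22l1, Rpl23a, Rpl24, Rpl36, Rpl37, Rpl39, Rps10, Rps18, Rps19bp1, Rps27, Rps27l, Rps27rt and Rps4x. Of these, Rps10, Rpl24 and Rps19bp1 had under 3 CPM in either group. Rpl23a, by contrast, was 74.4 ± 4.15 against 69.0 ± 2.86 CPM, a log2 fold change of -0.11 (SE 0.0529, edgeR adjusted p = 0.103). In 5 members called lower the groups overlapped, among them Rpl34, Rpl36a and Rps15a.

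Genes that build and run ribosomes were examined beside them. Of 40 ribosome assembly factors, 28 were called lower and 0 higher (median -0.41). Nip7, an assembly factor for the large subunit, was 5.90 ± 1.39 against 3.07 ± 0.606 CPM (log2 fold change -0.90), and Fbl, the methyltransferase of the snoRNA particles, was 24.3 ± 3.28 against 14.04 ± 1.35 CPM (-0.78). Of 20 genes for RNA polymerase I, its factors and the 5S rRNA gene factor 8 were called lower, led by Polr2e (-0.89), a subunit shared by the 3 polymerases, and Polr1b (-0.74). Of 25 translation factors and other TOP mRNAs, 13 were called lower and 1 higher, with Cnbp (-0.49) and Eef1d (-0.42) falling and the initiation helicase Eif4a2 (0.41) rising. Of 15 regulators of ribosomal protein gene expression, Rps6ka1 was called lower (-0.90) and the S6 kinase gene Rps6kb1 (0.45) and Nfx1 (0.34) higher. Of 77 tested mitochondrial ribosomal protein genes, 30 were called lower and 0 higher (median -0.38), a lower median than that of the cytosolic members with fewer of them called. Scaling to germ cell genes, which shifts all genes up alike, puts the fold changes of Fbl, Polr1b, Cnbp and Eef1d above 0.

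The second comparison set the fusion against the empty vector in GS cells. Ribosomal protein genes took a smaller share of counts with the fusion in every library, those of 0 h included. The summed share was 2.99 to 3.57% (median 3.13%) over the 12 empty-vector libraries and 2.63 to 2.89% (median 2.83%) over the 12 fusion libraries. These groups did not overlap. At 0 h the shares were 2.99% in both empty-vector libraries and 2.77 and 2.63% with the fusion. Replicate 2 of the empty vector at 0.5 h, at 3.57%, stood apart from the other empty-vector libraries. At 8 h the shares were 3.35 and 3.30% with the empty vector and 2.85 and 2.87% with the fusion. The 24 libraries held germ cell markers at 1565 to 2235 CPM (empty vector) and 1660 to 1946 CPM (fusion) and peritubular and stromal markers at 982 to 1604 and 1172 to 2003 CPM. The germ cell value of 1565 CPM was that of replicate 2 of the empty vector at 0.5 h. Every other empty-vector library had 1951 CPM or more, above all fusion libraries. Summed Sertoli cell markers ran from 185 to 445 and from 240 to 558 CPM, Leydig cell markers from 8.95 to 17.1 and from 8.04 to 14.1 CPM, and endothelial markers from 31.4 to 47.6 and from 20.01 to 32.6 CPM. On the average of 0.5 to 8 h, 4 of 8 germ cell markers were called lower and 1 higher with the fusion (median -0.27). In the same average 4 of 7 peritubular and stromal markers were called higher and 1 lower with the fusion, and 3 of 5 endothelial markers lower (median -0.57). Of the defining markers, Amh, Hsd3b1, Insl3, Lhcgr and Hbb-bt were at 0 in all 24, and the part of the markers in these results was not tested.

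**Figure D4:**
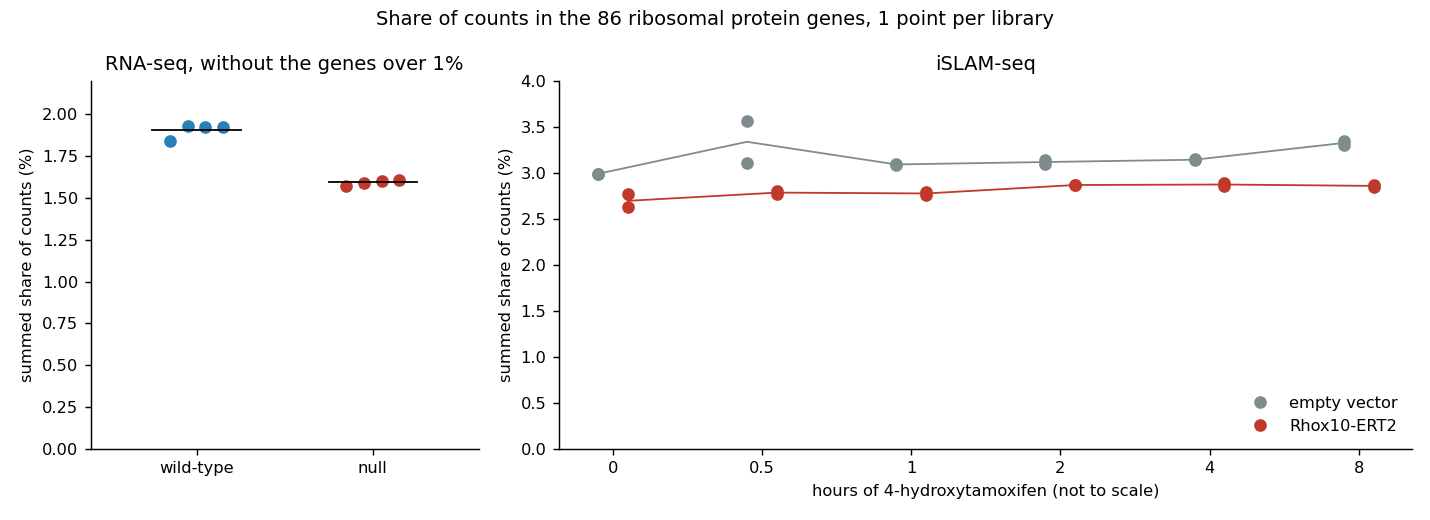
Summed counts of the 86 members as a percent of counts in each library, for RNA-seq (without the 8 genes over 1% of counts; bars are means) and for iSLAM-seq by vector and time (lines join means). Null libraries (1.57 to 1.61%) lie below wild-type (1.84 to 1.93%), an order that turns when all counts are the denominator, and fusion libraries (2.63 to 2.89%) lie below empty-vector libraries (2.99 to 3.57%).

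Averaged over 0.5 to 8 h (10 libraries a vector), 35 members were called lower and 6 higher with the fusion by edgeR's quasi-likelihood test, with a median of -0.13 against 0.00 for all genes, and scaling by library totals gave 34 lower and 7 higher. The background was 18.4% of all tested genes lower and 18.7% higher, and 30.3% lower among genes with a mean of at least 10 CPM. The called members were 24 of 52 large-subunit genes lower and 2 higher, and 11 of 34 small-subunit genes lower and 4 higher. The sharing of end sequence ran beside this: 14 lower and 2 higher of the 32 members with under 10% shared (median -0.18), 16 lower and 1 higher of 26 with 10 to 90% (-0.18), and 5 lower and 3 higher of 28 with over 90% (-0.00). Over all 12 libraries a vector, 8 members had every fusion library below every empty-vector library (among them Rpl10l, Rpl37a, Rpl39l, Rpl8 and Rplp1), against 2.47% of all genes, and 2 had every fusion library above (Rps15a and Rps27l), against 2.79%.

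Rpl10l had the largest fall of the called members, and Rpl39l the next. Its lowest, median and highest levels were 227, 243 and 276 CPM over the 12 empty-vector libraries and 144, 154 and 168 CPM over the 12 fusion libraries. No libraries overlapped, and the average log2 fold change was -0.69 (SE 0.0356, edgeR adjusted p = 4.14e-13). Rpl39l ran from 80.9 over 90.8 to 102 CPM with the empty vector and from 56.9 over 64.4 to 74.2 CPM with the fusion. It too had no overlap, with a log2 fold change of -0.52 (SE 0.0487, edgeR adjusted p = 8.84e-09). Both copies were thus lower in null RNA-seq and lower in the GS cells that carry the fusion. Their parents gave little to compare with: Rpl39 was 152 ± 15.5 against 162 ± 12.8 CPM (n = 10 each; edgeR adjusted p = 0.173), and Rpl10, whose last 250 bases all occur elsewhere, stood at 1.77 ± 0.528 against 2.33 ± 0.658 CPM. Rpl37a, a zinc-finger protein of the large subunit, was 184 ± 8.69 against 130 ± 7.09 CPM (log2 fold change -0.50, SE 0.0356, edgeR adjusted p = 1.12e-10). Rpl34 was 59.9 ± 4.52 against 45.6 ± 5.72 CPM (-0.40, edgeR adjusted p = 3.40e-05).

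Some members were higher with the fusion. Rps15a encodes a small-subunit protein and has 8 named pseudogenes. In the transcript taken for it, of 5179 bases, 0% of the windows of the last 250 bases occur elsewhere, and its other transcript ends were not examined. Rps15a had 191, 209 and 219 CPM (lowest, median, highest) with the empty vector and 271, 317 and 354 CPM with the fusion. All fusion libraries were above all empty-vector libraries, and the log2 fold change was 0.63 (SE 0.0335, edgeR adjusted p = 7.67e-13). Rps27l, a copy of Rps27 that is known as a p53 target, was 208 ± 11.5 against 289 ± 15.4 CPM (log2 fold change 0.48, edgeR adjusted p = 2.63e-11). Rps4x, at 4.20 ± 1.14 against 6.29 ± 0.918 CPM (0.59, edgeR adjusted p = 0.00374), and Rpl30 (0.39, edgeR adjusted p = 0.0499) were also called higher, and Rpl13a was another. The call of Rpl30 was lost in 21 of 33 alternative settings (log2 fold change 0.24 to 0.74 over the settings).

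Of the 3 stalk genes, 1 passed the test here. Rplp1 was 3671 ± 357 against 3076 ± 78.4 CPM (log2 fold change -0.25, edgeR adjusted p = 9.79e-07), while Rplp0 (0.02) and Rplp2 (0.07) did not pass the test. Rpsa was called lower (-0.27, edgeR adjusted p = 9.20e-05). Rps19 (0.04), Rps27a (0.28), Rpl5 (-0.22) and Rpl11 (-0.19) did not pass, nor did Rpl7l1 (-0.06) and Rpl22 (-0.03). Side by side with RNA-seq, 30 of the 69 members lower in null were also lower with the fusion, 3 were higher (Rpl30 and Rps15a among them) and 36 were not called. Of the 15 members not called in RNA-seq, 4 were lower (Rpl37, Rps10, Rps18 and Rps27rt), 3 higher (Rpl13a, Rps27l and Rps4x) and 8 not called. The call of Rps27rt on average (log2 fold change -0.16) was lost in 13 of 33 settings.

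At 0 h, before any tamoxifen, 6 members were called lower and 3 higher, against 4.32% and 6.56% of all tested genes. Among the 6 lower were Rpl10l (log2 fold change -0.60), Rpl37a (-0.42), Rpl39l (-0.46), Rpl8 (-0.32) and Rplp1 (-0.27). Rpl10l stood at 231 and 227 CPM in the empty-vector libraries and at 158 and 144 CPM in the fusion libraries, and at 8 h at 276 and 248 against 150 and 146 CPM. Rps15a (0.52) and Rps27l (0.48) were called higher at 0 h, and Rpl10 (1.69) at levels of 1.07 to 5.16 CPM. Rps15a was at 210 and 197 CPM with the empty vector at 0 h and at 307 and 277 CPM with the fusion. Of the 35 members lower on average, 34 had a negative fold change at 0 h already, and 6 were called there. The difference between the vectors at 0 h cannot be told apart from differences between the cell lines that carry them.

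Time by time, 21 members were called lower and 4 higher at 0.5 h. The counts were then 11 lower with 2 higher (1 h), 3 lower with 2 higher (2 h) and 7 lower with 2 higher (4 h), and at 8 h they were 23 lower with 2 higher. The background of genes called lower was 6.51%, 3.9%, 3.94%, 5.74% and 8.79% at these times. The member median was -0.09 at 0 h and -0.14, -0.05, -0.07, -0.08 and -0.24 at the later times, and 31 members were negative at all 6 times while 5 were positive. These counts moved with the libraries used: when a replicate was left out, the members called ran from 15 to 47 at 0.5 h, 6 to 26 at 1 h, 4 to 19 at 2 h, 5 to 26 at 4 h and 10 to 38 at 8 h. With only the 4 libraries of each time in the fit they were 0, 26, 17, 30 and 40, so the order of the times is not settled by these counts. The shares of all genes called in these fits, and in those with a replicate left out, are not reported here. Without the 0.5 h libraries 34 members were called lower and 4 higher at 8 h, against 12.3% of all genes called lower. The empty-vector replicates at 0.5 h were the least alike (SD of the members' log2 difference 0.702, against 0.249 to 0.527 in the other pairs).

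**Figure D5:**
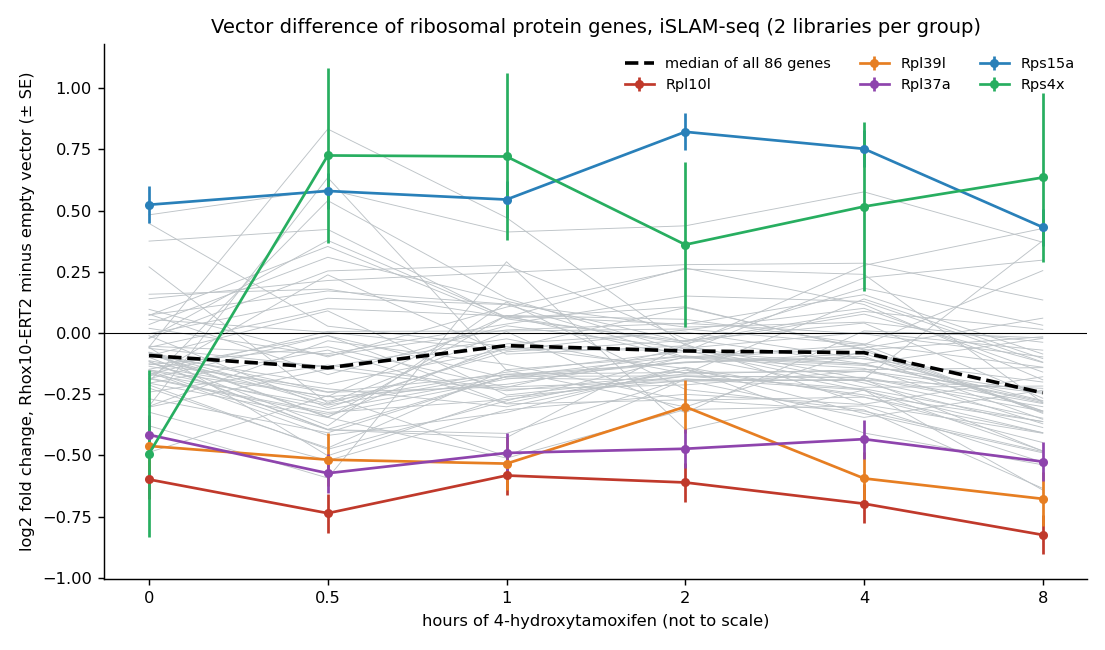
Log2 fold change, fusion minus empty vector, against hours of 4-hydroxytamoxifen. Grey lines are members with a mean of at least 10 CPM, the dashed black line is the median over all 86 members (-0.09 at 0 h, -0.24 at 8 h), and coloured lines with SE are Rpl10l, Rpl39l, Rpl37a, Rps15a and Rps4x; Rpl10l is negative and Rps15a positive at every time.

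Whether the vectors diverged after 0 h was tested as an interaction over the 5 later times. No member was called (0 of 86, against 2.39% of all genes called; 5 had an unadjusted p under 0.05, and DESeq2 called 1). The lowest edgeR adjusted p was 0.0888, for Rpl12. This count rests on the 0.5 h libraries: members were called when either replicate of the empty vector at 0.5 h was left out. Each of these fits takes the spread of the lone 0.5 h library from the other groups. The fit without replicate 1 does so with the library that stands apart. The shares of all genes called in these fits are not reported here, so their calls are not read as a result about the members. Without all 4 libraries of 0.5 h, a choice made after seeing the data, 11 members were called (among them Rpl4, Rps26, Rplp0, Rps15a, Rps19 and Rpl12), against 7.35% of all genes. Over time within a vector, 5 members changed with the empty vector (Rpl23, Rpl4, Rpl13, Rpl26 and Rps20; background 5.74%) and 3 with the fusion (Rpl23, Rps19 and Rps15a; background 9.44%). Without the 0.5 h libraries these counts were 23 and 23, against 10.8% and 20.9%.

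From 0 to 8 h with the empty vector, 8 members were called higher and 1, Rps25, lower (member median 0.18; background higher 3.84%), and with the fusion 2 were called higher, Rpl23 and Rpl26, and 1 lower, Rps19 at -0.67 (median -0.03; background higher 3.12%). Rpl4, a core large-subunit protein, went with the empty vector from 2733 and 2747 CPM at 0 h to 4040 and 4129 CPM at 8 h, and with the fusion from 2368 and 2387 to 2966 and 2871 CPM. For these changes from 0 to 8 h the fit without the 0.5 h libraries called 21 members higher and 2 lower with the empty vector, and 11 higher and 4 lower with the fusion, against 7.23% and 5.72% of all genes higher. In the fit with all libraries the log2 fold change of Rpl4 was 0.58 with the empty vector and 0.30 with the fusion (edgeR adjusted p = 0.0729). Rpl4 in the empty-vector replicate 2 at 0.5 h was 1952 CPM, below all its other values, while Rplp1 there was 4631 CPM, its highest. Without the 0.5 h libraries the change from 0 to 8 h differed between vectors for 6 members, all lower with the fusion: Rpl4 (-0.27), Rpl12 (-0.98), Rps26 (-0.23), Rpl13 (-0.19), Rps19 (-0.37) and Rpl39 (-0.34), against 4.24% of all genes.

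Of the related lists, averaged over 0.5 to 8 h, 20 of 40 assembly factors were called lower and 2 higher (Rrp12 -0.50 and Tsr1 -0.43; Sbds 0.31 and Wdr12 0.16, whose call was lost in 12 of 33 settings). Of 19 genes tested for RNA polymerase I, its factors and the 5S rRNA gene factor, 7 were called lower and 0 higher, led by Gtf3a (-0.43), which serves the 5S rRNA genes transcribed by RNA polymerase III, and Polr1c (-0.40), a subunit of polymerases I and III. Of 25 translation factors and other TOP mRNAs 11 were lower, such as Eif3k (-0.27) and Eif3h (-0.25). In the same list 3 were higher, among them Vim (0.64), which is not a translation factor, and Eif2s3x (0.51). Of 15 regulators 3 were lower (Rps6kb2 -0.32 and Mtor -0.20 among them) and 5 higher (Mycn 0.30 and Yy1 0.28 among them). The 76 tested mitochondrial ribosomal protein genes had 27 lower and 7 higher. Germ cell genes had 16 of 24 lower (median -0.34).

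RHOX10 peaks lay at the promoters of 21 members (24.4%), counted as peaks within 3 kb of the start by the authors' distance. By the same cut 4380 of the 5147 peaks lay at promoters. For 2 of the 21 members, Rpl5 and Rps27l, the authors' annotation places the peak in the first intron. Over all protein-coding genes 18.6% had a promoter peak, and 36.9% of those at 10 CPM or more in wild-type RNA-seq, so the share of the members lay between these backgrounds. The median peak score of member peaks was 136 and that of all promoter peaks 142 (the score is the authors' value for each peak). The highest member scores were Rpl7 (360, chr1:16104581-16105090, mm10), Rps23 (292, chr13:90922663-90923165), Rps27a (281, chr11:29547800-29548473) and Rpl37 (271, chr15:5116234-5116771). The peak at Rpl7 has the start of Rdh10 within 1 kb as well, and the peak at Rps27a that of Clhc1. By the authors' distance, 17 of 21 member peaks were upstream of the start, with a median of -104 bases, against 52.1% and -11 bases over all promoter peaks. Measured to the nearest start of the gene models used here, the distance stayed within 100 bases of the authors' for 18 of the 21. It moved farther for Rpl30 (-237 to 127), Rpl7 (-402 to -173) and Rps23 (-208 to -44), so the offset depends on the start taken. Another protein-coding start lay within 1 kb of 5 of the 21, against 17.02% of all promoter peaks. On the X, Rpl10 (153), Rpl36a (75.9) and Rps4x (58.3) had peaks.

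The calls were then set side by side for members with and without a peak. Of the 20 tested members with a promoter peak, 15 were lower in null RNA-seq (median -0.29), and of the 64 without, 54 were (median -0.28). In GS cells, 10 members with a peak were lower and 3 higher on average, against 25 and 3 of the 65 without. By comparison 23 of 78 mitochondrial ribosomal protein genes had a promoter peak. Members with a pyrimidine run of at least 8 at the start were lower in 15 of 21 cases in null RNA-seq (median -0.24), and those with a shorter run in 36 of 45 (median -0.31). The 45 include Rpl3l and Rpl36al, which were not tested.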

How the data were processed

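The authors deposited a table of raw counts per gene for each of RNA-seq and iSLAM-seq, and a list of merged RHOX10 peaks with a peak score. The submitters' processing notes name STAR 2.5.2b, Subread, featureCounts and DESeq2 with GRCm38 for RNA-seq, limma 3.42.2 with mm10 for iSLAM-seq, and Bowtie2 2.2.5, SAMtools and HOMER with mm10 for CUT&Tag. The strand setting, the treatment of reads with several matches, and whether the iSLAM-seq counts hold all or only converted reads are not given in the sources used here. Without strand, reads of 24 members that overlap a gene on the other strand cannot be told apart from that gene, and 35 members overlap a gene on their own strand, among them 30 that host a snoRNA.

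From the deposited counts, edgeR 4.0.16 (R 4.3.3) fitted quasi-likelihood models with TMM scaling and filterByExpr over the whole table, with Benjamini-Hochberg adjustment over all genes tested and a threshold of 0.05. RNA-seq compared 4 with 4 libraries. The iSLAM-seq model held all 12 groups of vector and time. Levels are TMM-scaled CPM. Gene models and the search for 50-base windows came from GRCm38, and motifs from RefSeq promoters. Alternatives were DESeq2 1.42.0, other scalings, no filter, an exon length offset, a replicate block and leaving out each replicate. The models were tested on simulated data. Replicate numbers do not pair the libraries: deviations of same-numbered libraries correlated at -0.00168 on average in RNA-seq (-0.0192 to 0.0140) and at 0.00643 over 132 pairs in iSLAM-seq. The members and lists were chosen with earlier results of these data known. Named with values were paralogue, stalk, 5S and ubiquitin-fusion members with Rpsa, Rps19 and Rps19bp1, the 4 highest and 4 lowest levels, up to 4 called members with the largest rise and fall, the 4 highest peak scores, and up to 2 called genes a direction of each related list. Rpl8, Rpl37 and other names given with a count of calls, and the members of the fit without 0.5 h, were chosen after their values were seen. Where a count is given with only some of its genes, the rest are not reported here.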

Additional observations from a re-analysis of the deposited data

Results flagged for a closer look

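In groups of 4 RNA-seq libraries, the library farthest from the rest was compared with the spread of its group by Dixon's test (critical value 0.829), and 4 of 90 groups examined passed, where chance gives about 4.5. Nip7 was 7.97 CPM in wild-type replicate 3, against 5.06 to 5.41 CPM in the other wild-type libraries. Rplp0 was 115 CPM in null replicate 4, against 106 to 107 CPM in the other null libraries. Rpsa was 136 CPM in wild-type replicate 1, against 147 to 148 CPM in the others. The summed share of the members was 1.84% in wild-type replicate 1 and 1.92 to 1.93% in the others. Each of these values kept the order of the groups, since Rplp0 in null replicate 4 and both wild-type replicate 1 values lay on the same side of the other genotype as the rest of their group.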

How the results depend on the processing

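The count of members called in RNA-seq (69) was within 1.5 times of itself under DESeq2, its size factors, no filter and the removal of genes over 1%, and in the fits that left out a replicate (67 to 72). With the exon length offset it was 46, at the edge of this limit, and 3 of these were higher. The count was 22 with library totals and 4 when a change of 0.5 or more on the log2 scale was also asked. Scaling to germ cell genes, which moved the median of all genes up, gave 83 calls, mostly in the opposite direction. Counted only over the 39 tested members with under 50% of the transcript shared, chosen after seeing the data, it was 34. The iSLAM-seq counts were likewise taken over the 32 members with under 10% of the last 250 bases shared (called little shared sequence), with fewer members in each. This class rests on the 1 transcript taken for each member. The count at 0 h (9) was 4 over these, 19 without the 0.5 h libraries (also chosen after seeing the data) and 4 to 20 when a replicate was left out. The count for the average (41) was 16, 43 and 32 to 50 in the same order, and 4 at 0.5 or more. The count for the change from 0 h (0) was 8 with no filter, 1 with DESeq2, 11 without the 0.5 h libraries and 0 to 39 when a replicate was left out. The count for the empty vector over time (5) was 3 over members with little shared sequence, 24 with no filter, 11 with DESeq2, 23 without the 0.5 h libraries and 2 to 46 when a replicate was left out, and that for the fusion over time (3) was 10 with no filter, 23 without the 0.5 h libraries and 1 to 24. Members with a promoter peak (21) were 11 with peaks in the upper 50% of scores. The cause of these changes was not tested, apart from the smaller number of members counted, samples used or peaks kept. For the fits that left out a replicate, the shares of all genes called are not reported here. With the replicate block, which these numbers do not pair, 69, 10, 40, 0, 6 and 4 members were called in the same order of comparisons.

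Signs turned, among values called in either fit, under 3 settings; uncalled values near 0 also crossed it in others, such as Rpl24 in RNA-seq (-0.20 to 0.91) and Rplp0 on average (-0.01 to 0.06). With library totals the log2 fold changes in RNA-seq were Rpl10 (0.34), Rpl11 (0.11), Rpl22l1 (0.32), Rpl23a (0.24), Rpl3 (0.17), Rpl30 (0.0499), Rpl34 (0.13), Rpl36a (0.0661), Rpl37 (0.25), Rpl39 (0.33), Rpl5 (0.0391), Rpl7 (0.0939), Rps15a (0.17), Rps19 (0.14), Rps27 (0.30), Rps27a (0.0763), Rps3a1 (0.0119), Rps4x (0.29) and Rpsa (0.0469). Scaled to germ cell genes they were Cnbp (0.39), Eef1d (0.46), Fbl (0.10), Polr1b (0.14), Rpl10 (0.88), Rpl11 (0.64), Rpl13a (0.86), Rpl22 (0.30), Rpl22l1 (0.85), Rpl23a (0.77), Rpl3 (0.70), Rpl30 (0.58), Rpl34 (0.66), Rpl36a (0.60), Rpl37 (0.78), Rpl37a (0.52), Rpl39 (0.86), Rpl5 (0.57), Rpl7 (0.63), Rpl7l1 (0.20), Rplp0 (0.52), Rplp1 (0.51), Rplp2 (0.40), Rps15a (0.70), Rps19 (0.67), Rps19bp1 (0.73), Rps23 (0.53), Rps27 (0.83), Rps27a (0.61), Rps27l (0.53), Rps27rt (0.63), Rps3a1 (0.55), Rps4x (0.82) and Rpsa (0.58). With the exon length offset they were Rpl23a (0.15) and Rps27 (0.19). Over all named genes and settings, 2190 of 2354 values kept direction and call, 94 lost the call, 15 gained it and 55 turned. Low 3′ end levels limit 22 members under 10 CPM in GS cells, among them Rpl10, Rps4x and Rpl5.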
